A study of Mus musculus with 12 samples.

Results

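Lix1l and 8 genes beside it on mouse chromosome 3 were followed across 12 livers: Txnip upstream of Lix1l, and Rbm8a, Itga10, Ankrd35, Pias3, Nudt17, Polr3c and Rnf115 downstream of it. The 9 genes were taken by symbol from a table of 56107 genes, each symbol matched 1 entry, and the question was whether genes next to a knocked-out locus differ between genotypes. The livers fell into 4 groups of 3 animals: Lix1l knockouts (KO) on a high-fat diet (HFD), wild-type (WT) littermates on HFD, KO on a low-fat diet (LFD) and WT littermates on LFD. Feeding began at 6 weeks of age and lasted 12 weeks, and the controls carried no allele named in the labels. The knockout was made in the whole animal, and which part of Lix1l was removed is not stated in the labels. Levels are in TPM, a share of all transcripts that is scaled to transcript length, so that levels of different genes can be set side by side. TPM keeps no read depth, and the depth of the libraries is unknown.

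LIX1L is a vertebrate protein related to LIX1, a limb expression gene first described in chick, and has been described as an RNA-binding protein. The region around it is packed with unrelated housekeeping and signalling genes: TXNIP binds thioredoxin and curbs glucose uptake, RBM8A is a core subunit of the exon junction complex that splicing leaves on messenger RNA, and POLR3C is a subunit of RNA polymerase III. RNF115 marks proteins with ubiquitin, and PIAS3 attaches the small modifier SUMO.

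On build GRCm38 (mm10), Lix1l lies on the + strand at chr3:96601149-96626171. Its end is 3762 bp from the start of Rbm8a at chr3:96629933-96633791, and the other genes follow in the order Itga10 (chr3:96645584-96664519), Ankrd35 (chr3:96670131-96691032), Pias3 (chr3:96696384-96706070), Nudt17 (chr3:96706067-96708562), Polr3c (chr3:96711490-96727628) and Rnf115 (chr3:96727664-96791638). Txnip lies on the other side, at chr3:96557957-96561883, with its start at -43.2 kb from that of Lix1l. All are on the + strand except Nudt17 and Polr3c. Polr3c and Rnf115 point away from each other with annotated starts 36 bp apart, and the ends of Pias3 and Nudt17 overlap by 4 bp.

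**Figure D1:**
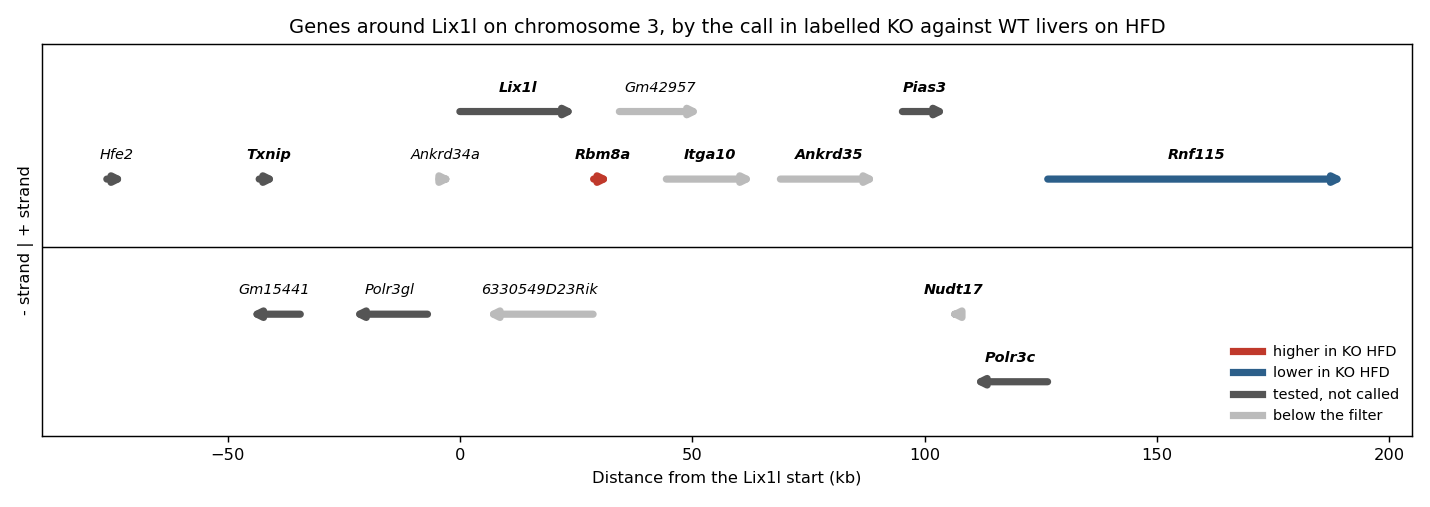
Map of the genes around Lix1l that are reported here, drawn to scale as distance from the Lix1l start in kb, with + strand genes above the line and - strand genes below it, the 9 genes in bold, and each gene's call in livers labelled KO against WT on HFD as its colour. Rbm8a is higher, Rnf115 is lower, and Lix1l, Txnip, Pias3 and Polr3c were tested and not called.

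The DNA just before the starts is shown because the levels below belong to these promoters, among them the Lix1l promoter next to the deleted gene and the stretch that serves as start region for 2 genes at once. The sequences are from RefSeq on GRCm38.p6, + strand, 5′ to 3′, with matches to searched motifs in capitals. The Lix1l stretch is chr3:96600883-96601132, the 250 bases before its start, the Txnip stretch is chr3:96557707-96557956, the 250 bases before its start, and the Polr3c and Rnf115 stretch is chr3:96727440-96727610, the 171 bases between the RefSeq starts of these genes.
Lix1l: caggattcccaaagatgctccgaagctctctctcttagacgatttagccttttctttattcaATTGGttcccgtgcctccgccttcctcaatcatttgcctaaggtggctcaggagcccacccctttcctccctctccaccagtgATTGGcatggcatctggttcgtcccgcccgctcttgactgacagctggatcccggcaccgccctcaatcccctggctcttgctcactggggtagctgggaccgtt
Txnip: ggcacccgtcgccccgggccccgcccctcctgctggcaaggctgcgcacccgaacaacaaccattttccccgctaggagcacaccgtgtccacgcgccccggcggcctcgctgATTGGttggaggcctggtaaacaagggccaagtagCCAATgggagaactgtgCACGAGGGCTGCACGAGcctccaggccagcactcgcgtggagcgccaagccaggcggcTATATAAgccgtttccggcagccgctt
Polr3c and Rnf115: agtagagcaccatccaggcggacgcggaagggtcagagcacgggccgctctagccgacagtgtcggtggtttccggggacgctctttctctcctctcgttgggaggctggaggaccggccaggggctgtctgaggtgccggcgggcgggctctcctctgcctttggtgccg
The motifs, searched on both strands, were CCAAT (the CCAAT box), CACGNG followed after any 5 bases by a further CACGNG (the carbohydrate response element, bound by the glucose-sensing factors MLXIPL and MLXIP), CACGTG (an E-box, which the element before it can contain) and TATANAA, the letters of a TATA box. Lix1l had CCAAT box matches that begin at -188 and -105, counted back from the start, both on the - strand. Txnip had CCAAT box matches at -137 and -102, a carbohydrate response element at -85 and a TATA box at -27. The Polr3c and Rnf115 stretch held no match to these motifs and was 67.8% G and C with 15 CpG. The 250 bases before the Polr3c start, which reach beyond this stretch, held 1 CACGTG match. Of 32851 promoter windows of the same 250 bases, 33.8% held CCAAT, 0.0457% (15 windows) the carbohydrate response element, 6.02% CACGTG and 10.4% TATANAA. Of the 9 genes, 8 were in the promoter table, and Rbm8a was not.

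Lix1l itself was a low gene in liver and its RNA did not separate the genotypes. Livers labelled KO on HFD had 1.92, 0.15 and 1.38 TPM (animals 1, 5 and 6), and WT livers on HFD had 1.18, 1.73 and 0.90 TPM (animals 1, 2 and 6). On LFD, livers labelled KO had 0.27, 0.21 and 0.78 TPM (animals 2, 4 and 5), and WT livers had 0.72, 0.58 and 1.08 TPM (animals 4, 7 and 8). The ranges overlapped on both diets: liver 5 labelled KO on HFD was the lowest of all 12 and liver 1 labelled KO on HFD the highest. The log2 change of TPM + 1 was -0.17 ± 0.31 (SE) on HFD (adjusted p = 0.695, limma) and -0.35 ± 0.31 on LFD (adjusted p = 0.716), and averaged over the diets -0.26 ± 0.22 (adjusted p = 0.421). An exact 2-sided permutation of genotype within diet gave p = 0.44. Without liver 5 labelled KO on HFD, the HFD change was 0.23 (adjusted p = 0.488), and with libraries weighted by their spread it was -0.73 (adjusted p = 0.0138). That weighting called 64.5% of all genes tested on HFD. Of the genes tested, 5.23% had a lower mean level than Lix1l. Lix1l RNA is therefore no check of the labels, and which exons were deleted is not known here. The livers are called "labelled KO" throughout for that reason, and every direction below rests on those labels. A pseudogene on the opposite strand, 6330549D23Rik, overlaps Lix1l over 19513 bp. It had 0.06 to 0.44 TPM, and 2.12% of the 31-base words of Lix1l transcripts occur in it. Whether the library kept strand is not stated, so reads from the shared stretches cannot be assigned by strand.

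**Figure D2:**
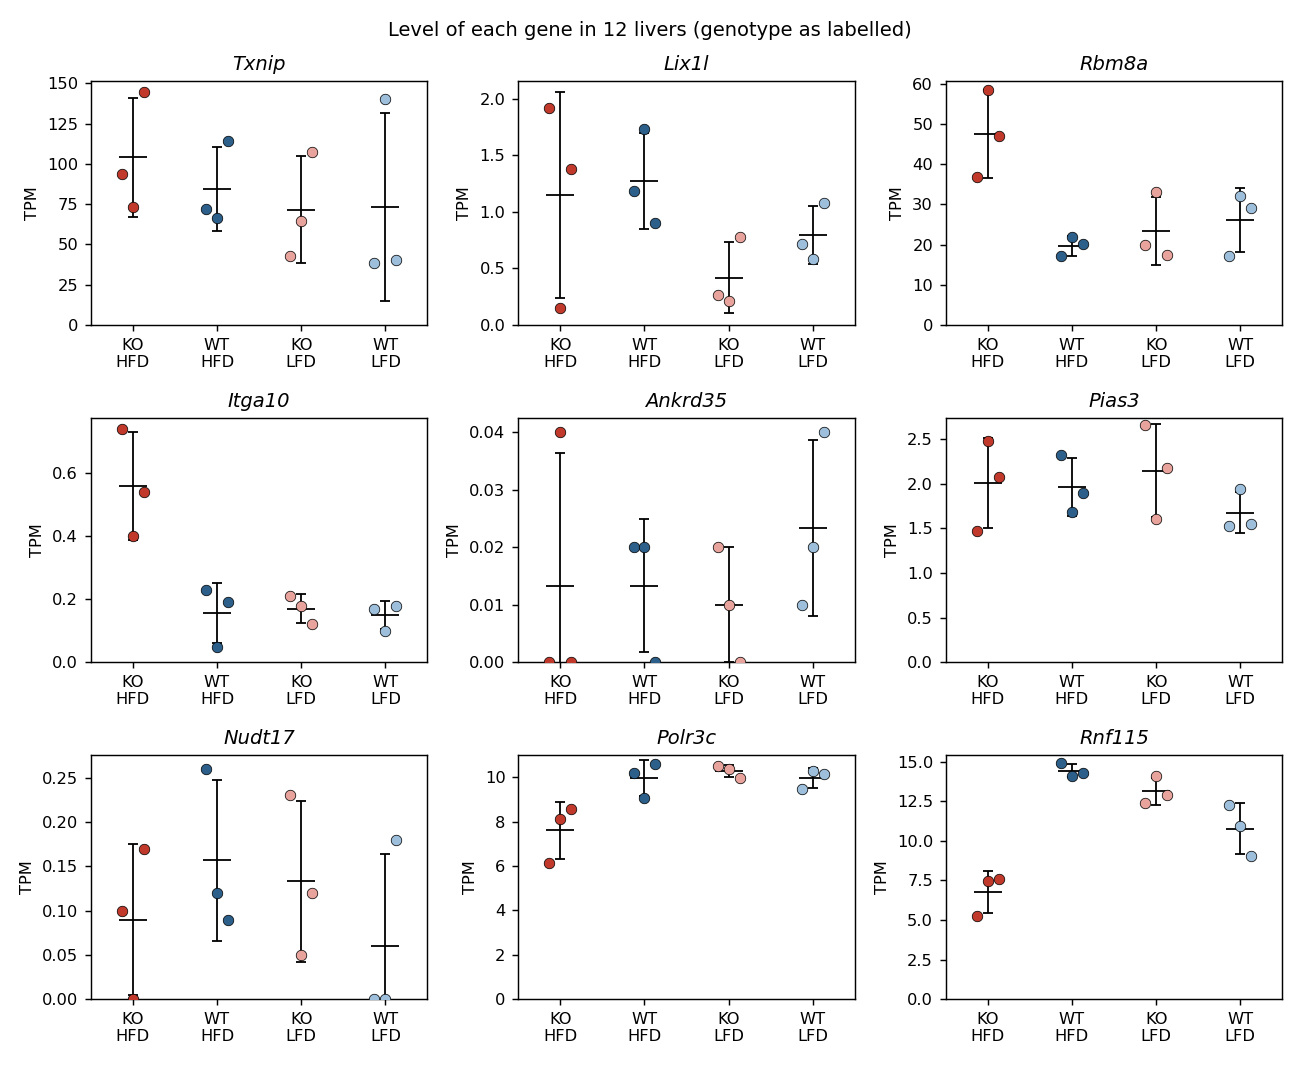
Level of each of the 9 genes in TPM (linear axes from 0, one panel per gene) in the 12 livers, with each point a liver, the bar the group mean and the whiskers 1 SD (n = 3). Rbm8a and Itga10 sit higher, and Polr3c and Rnf115 lower, in all 3 livers labelled KO on HFD than in the 3 WT livers on HFD, while the points for Lix1l overlap.

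Of the 9 genes, 6 reached 1 TPM in at least 3 libraries and were tested with the other genes above that level, 11980 in all. Over the 12 livers the tested genes averaged 83.2 TPM for Txnip, 29.2 TPM for Rbm8a, 11.3 TPM for Rnf115, 9.45 TPM for Polr3c, 1.95 TPM for Pias3 and 0.908 TPM for Lix1l. Itga10, Ankrd35 and Nudt17 were below it. On HFD, 1 of the 6 was higher in livers labelled KO (Rbm8a), 1 was lower (Rnf115) and 4 did not pass adjusted p below 0.05. Across all genes tested, 37.0% were called in that comparison, 11.2% higher and 25.8% lower, so that 2 of 6 is near the share for any gene. The median log2 change of the 6 was -0.08, against -0.25 over all genes tested. On LFD none of the 6 was called, and none had an unadjusted p below 0.05 in limma. On that diet 0.159% of all genes were called and 12.7% had an unadjusted p below 0.05. The animals are separate mice, so these p-values weigh each difference against the spread between animals within groups. That spread was pooled over the 4 groups and moderated across genes.

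Rbm8a, next to Lix1l on its downstream side, was more than doubled on HFD in livers labelled KO. These had 36.72, 58.45 and 47.07 TPM, against 17.07, 22.01 and 20.16 TPM in WT livers on HFD. The 3 livers labelled KO were all above the 3 WT livers. Group means were 47.4 ± 10.9 TPM in livers labelled KO and 19.7 ± 2.50 TPM in WT livers (SD, n = 3 each), a ratio of 2.40. The log2 change was 1.20 ± 0.29 (SE, adjusted p = 0.00909, limma), and the exact permutation p was 0.1, the smallest that 3 against 3 allows. On LFD, livers labelled KO had 19.88, 33.08 and 17.36 TPM, against 17.18, 32.02 and 29.19 TPM in WT livers. The LFD groups overlapped throughout, with a log2 change of -0.16 ± 0.29 (adjusted p = 0.886). The change on HFD minus the change on LFD was 1.36 ± 0.41 on the log2 scale (adjusted p = 0.0540), and averaged over the diets the log2 change was 0.52 ± 0.20 (adjusted p = 0.0836). Under median-ratio scaling the difference between the diets was called, at 1.72 (adjusted p = 0.0289). Of the 31-base words in Rbm8a transcripts, 13.2% occur in another gene, 10.4% in the copy Rbm8a2, so part of its level could be assigned either way. In bulk liver, fewer cells of a type and less RNA per cell cannot be told apart, here or for the genes below.

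Rnf115, an E3 ubiquitin ligase also known as BCA2 that works in membrane trafficking and protein disposal, had the lowest adjusted p of the 6 tested genes on HFD. Livers labelled KO on HFD had 5.28, 7.45 and 7.59 TPM, and WT livers on HFD had 14.91, 14.08 and 14.29 TPM. On LFD, livers labelled KO had 12.38, 14.08 and 12.87 TPM, and WT livers had 12.26, 10.96 and 9.07 TPM. The 3 livers labelled KO on HFD were the lowest of all 12, while on LFD the order was the other way round and the groups again did not overlap. Rnf115 averaged 6.77 ± 1.30 TPM in livers labelled KO and 14.4 ± 0.432 TPM in WT livers on HFD, a ratio of 0.470 (log2 change -1.0 ± 0.17, adjusted p = 0.00236, limma). On LFD it averaged 13.1 ± 0.875 TPM in livers labelled KO and 10.8 ± 1.60 TPM in WT livers, a log2 change of 0.27 ± 0.17 (adjusted p = 0.568). The difference between these 2 changes was -1.27 ± 0.24 (adjusted p = 0.0208), the one call among the 6 genes for the interaction of genotype and diet. In that comparison 9.66% of all genes were called, 7.12% of all genes with a negative sign. An unadjusted p below 0.05 was found there for 2 of the 6 genes and for 32.8% of all genes. Averaged over the diets, the log2 change was -0.37 ± 0.12 (adjusted p = 0.0510). None of the 6 passed there, where 21.5% of all genes were called. Of the 6, 2 had an unadjusted p below 0.05 averaged over the diets, beside 37.7% of all genes. The interaction call depended on single libraries, with adjusted p = 0.0682 without WT liver 1 on HFD, 0.0560 without WT liver 6 on HFD and 0.0664 without WT liver 8 on LFD. Those fits called 0.234%, 0.576% and 0.367% of all genes for the interaction, in the same order, beside 9.66% with all livers. The interaction value of Rnf115 was -1.36 to -1.13 with any library left out.

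Polr3c shares its start region with Rnf115 and lay lower in the same livers, by less. Livers labelled KO on HFD had 6.14, 8.11 and 8.57 TPM, and WT livers on HFD had 10.19, 9.05 and 10.60 TPM. On LFD, livers labelled KO had 10.50, 10.35 and 9.96 TPM, and WT livers had 9.45, 10.27 and 10.15 TPM. The HFD groups did not overlap and the LFD groups did. The log2 change was -0.36 ± 0.16 on HFD (adjusted p = 0.0900, limma) and 0.04 ± 0.16 on LFD (adjusted p = 0.951). Across the 12 livers, Pearson's r between log2(TPM + 1) of Polr3c and Rnf115 was 0.837, the highest among the 6 tested genes, and that between Rbm8a and Rnf115 was -0.747. These values describe 12 libraries that share groups, and the 3 livers labelled KO on HFD lie apart from the rest in the plot of the pair.

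**Figure D3:**
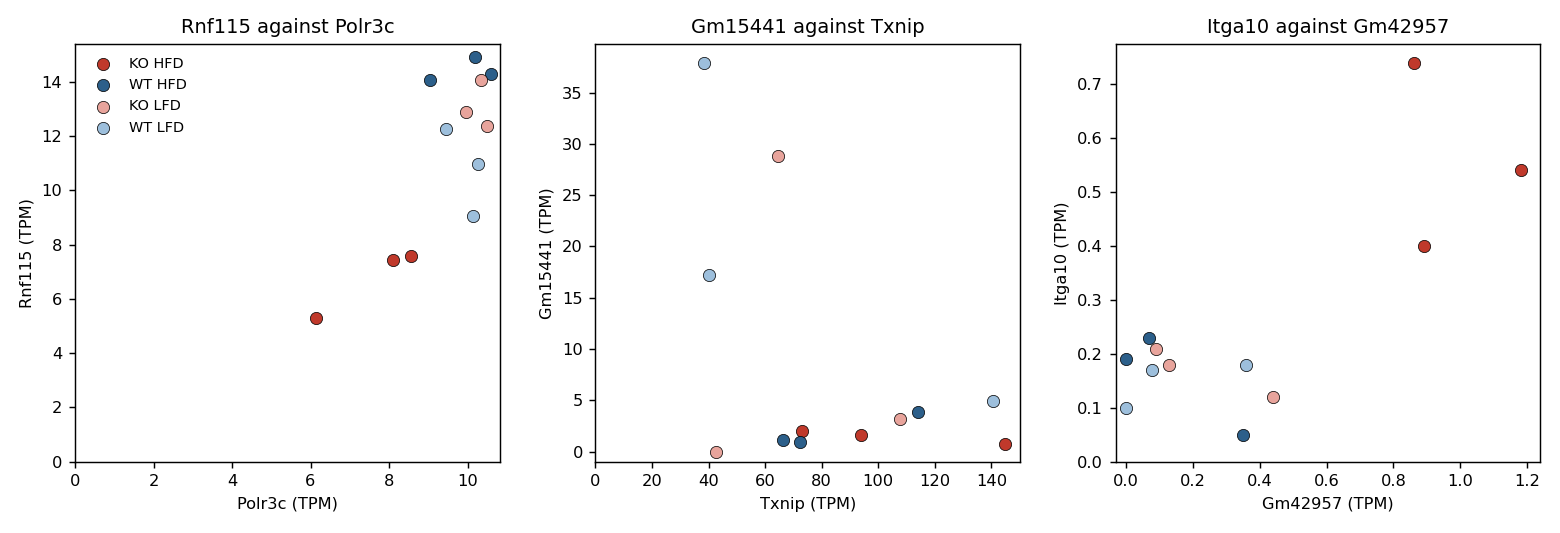
Scatter plots of TPM in the 12 livers, coloured by group: Rnf115 against Polr3c, which share a start region, Gm15441 against Txnip, which overlap on opposite strands, and Itga10 against Gm42957, which overlap on the same strand. The 3 livers labelled KO on HFD stand apart in the Polr3c and Rnf115 panel and in the Itga10 and Gm42957 panel, and not in the Txnip panel.

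Txnip was the most abundant of the 9, above 91.6% of the genes tested, and its spread within each group exceeded the difference between genotypes. TXNIP RNA in liver is known to follow glucose through the carbohydrate response element shown above. Its level was 93.99, 73.15 and 144.83 TPM in livers labelled KO on HFD, against 72.30, 66.16 and 114.20 TPM in WT livers on HFD. On LFD the livers labelled KO had 42.77, 64.61 and 107.61 TPM, against 38.54, 140.42 and 40.19 TPM in WT livers. The groups overlapped on both diets, at 104 ± 36.9 TPM in livers labelled KO and 84.2 ± 26.1 TPM in WT livers on HFD. The log2 change was 0.29 ± 0.49 on HFD (adjusted p = 0.665, limma) and 0.15 ± 0.49 on LFD (adjusted p = 0.942). The whole of Txnip, 3927 bp, lies inside the antisense gene Gm15441, with which it shares 17.2% of its 31-base words. Gm15441 had 1.62, 1.97 and 0.74 TPM in livers labelled KO and 0.90, 1.09 and 3.86 TPM in WT livers on HFD. On LFD it had 0, 28.78 and 3.16 TPM in livers labelled KO and 37.85, 4.94 and 17.18 TPM in WT livers. The level of the antisense gene was highest in 2 WT livers and 1 labelled KO on LFD, at most 3.86 TPM on HFD, and without a stated strand, reads from the stretches it shares with Txnip cannot be told apart.

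Pias3, an E3 ligase for the small modifier SUMO that restrains STAT transcription factors, was low and even. Livers labelled KO on HFD had 1.47, 2.48 and 2.07 TPM, against 2.32, 1.68 and 1.90 TPM in WT livers on HFD. On LFD the livers labelled KO had 2.66, 1.61 and 2.17 TPM, against 1.53, 1.94 and 1.55 TPM in WT livers. Both pairs of groups overlapped. The log2 change was 0.01 ± 0.19 on HFD (adjusted p = 0.969, limma) and 0.22 ± 0.19 on LFD (adjusted p = 0.691).

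Itga10, Ankrd35 and Nudt17 were barely transcribed and are described with no call. Itga10, the alpha chain of a collagen-binding integrin best known from cartilage, had 0.74, 0.40 and 0.54 TPM in livers labelled KO and 0.23, 0.05 and 0.19 TPM in WT livers on HFD. On LFD it had 0.21, 0.18 and 0.12 TPM in livers labelled KO and 0.17, 0.10 and 0.18 TPM in WT livers. The HFD groups did not overlap, at a ratio of 3.57 (exact permutation p = 0.1, the smallest possible), and the LFD groups did. With no filter on low values the limma change of Itga10 on HFD was 0.43 on the log2 scale (adjusted p = 0.0119). That fit called 15.3% of 26313 genes. Over both diets the exact permutation within diet gave p = 0.03 for Itga10. A protein-coding annotation on the same strand, Gm42957, overlaps Itga10 over 7518 bp and shares 31.8% of its 31-base words. Gm42957 had 0.86, 0.89 and 1.18 TPM in livers labelled KO and 0.07, 0.35 and 0 TPM in WT livers on HFD. Both annotations lay higher in the same 3 livers, and how reads were split between them is uncertain. Ankrd35, an ankyrin repeat protein, was between 0 and 0.04 TPM in every liver, and Nudt17, a predicted Nudix hydrolase, between 0 and 0.26 TPM. For these genes the HFD groups overlapped, with exact permutation p = 1 for Ankrd35 and 0.5 for Nudt17.

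Counting all 9 genes by overlap alone, 4 had HFD groups that did not overlap (Rbm8a and Itga10 higher, Polr3c and Rnf115 lower in livers labelled KO) and 1 had LFD groups that did not (Rnf115, higher). Groups did not overlap for 53.4% of the tested genes on HFD, 16.1% higher and 37.3% lower, and for 17.6% on LFD. Among genes below the filter, where Itga10 falls, the share was 14.0% on HFD.

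Diet was compared within each genotype, and the comparisons in livers labelled KO share those livers with the HFD comparison above. Between HFD and LFD in livers labelled KO, Rbm8a was higher on HFD (log2 change 1.01 ± 0.29, adjusted p = 0.0273, limma) and Rnf115 was lower (-0.87 ± 0.17, adjusted p = 0.00697), a count of 2 of 6 where 23.8% of all genes were called, 6.73% higher and 17.0% lower. By overlap alone, 4 of the 9 genes had separate diet groups in livers labelled KO, where 38.6% of the tested genes did. Polr3c differed by -0.40 ± 0.16 (adjusted p = 0.0797), Lix1l by 0.52 ± 0.31 (adjusted p = 0.243) and Txnip by 0.57 ± 0.49 (adjusted p = 0.404). The Rbm8a diet call was lost without liver 5 labelled KO on HFD (adjusted p = 0.0850), without liver 2 labelled KO on LFD (0.0779) or without liver 5 labelled KO on LFD (0.0953). Lix1l was called higher on HFD without liver 5 labelled KO on HFD, by 0.91 (adjusted p = 0.0334). In WT livers none of the 6 was called between HFD and LFD, where 0.309% of all genes were called. Of the 6, 1 had an unadjusted p below 0.05 between the diets in WT livers, beside 12.1% of all genes. Rnf115 was the gene of lowest p there, at 0.40 ± 0.17 (adjusted p = 0.383), with all 3 WT livers on HFD above all 3 on LFD, and 24.0% of the tested genes had such separate groups. Rbm8a differed by -0.35 ± 0.29 (adjusted p = 0.681), Lix1l by 0.33 ± 0.31 (adjusted p = 0.719) and Txnip by 0.43 ± 0.49 (adjusted p = 0.776) in WT livers.

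In the HFD comparison, the share of genes called near Lix1l was close to that of all genes. There, 4 of the 11 tested genes with a start within 0.25 Mb of the Lix1l start were called (36.4%), 8 of 23 within 0.5 Mb (34.8%), 14 of 39 within 1 Mb (35.9%) and 30 of 90 within 5 Mb (33.3%). The rest of chromosome 3 had 170 of 461 called (36.9%), beside 37.0% of all genes tested. The median log2 change was -0.17 within 0.25 Mb, -0.03 within 1 Mb and -0.36 on the rest of the chromosome. On LFD no gene of chromosome 3 in these bins was called by limma. An unadjusted p below 0.05 was found on LFD for 1 of 11 genes within 0.25 Mb (9.09%), 5 of 23 within 0.5 Mb (21.7%) and 9 of 39 within 1 Mb (23.1%). It was found for 16 of 90 within 5 Mb (17.8%) and 63 of 461 on the rest of the chromosome (13.7%), beside 12.7% of all genes tested. The shares within 0.5, 1 and 5 Mb thus lay above that of all genes on LFD, and the share within 0.25 Mb below it. For the interaction of genotype and diet, 3 of 11 genes within 0.25 Mb were called (27.3%), 3 of 23 within 0.5 Mb (13.0%), 6 of 39 within 1 Mb (15.4%) and 10 of 90 within 5 Mb (11.1%). These shares lay above the 9.66% of all genes, and the rest of chromosome 3 had 11.5%. Averaged over the diets, 1 of 11 within 0.25 Mb was called (9.09%), below the 21.5% of all genes. The bins are nested and the genes in them are not independent, so these shares are a description with no test.

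**Figure D4:**
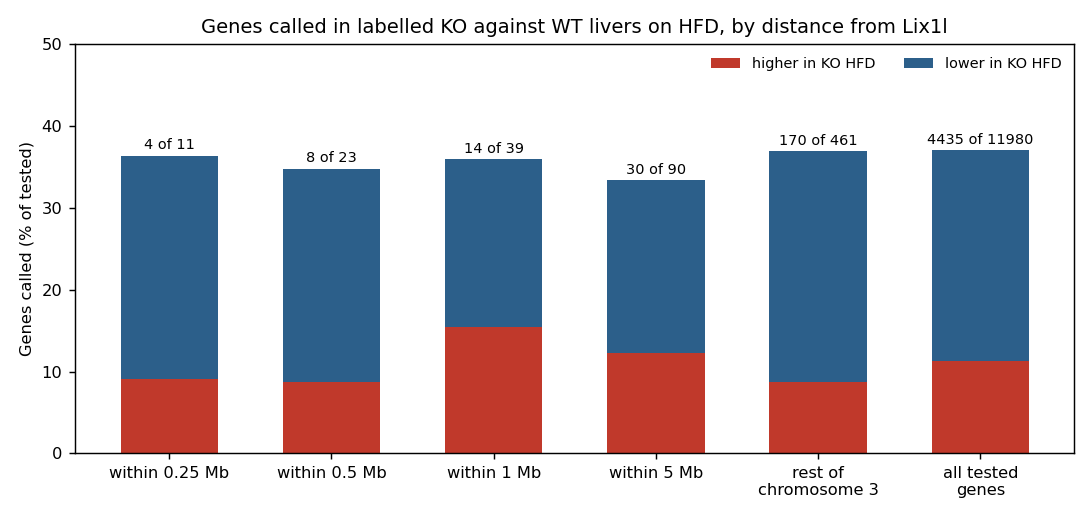
Share of tested genes called in livers labelled KO against WT on HFD, in percent from 0, for nested distance bins around the Lix1l start, the rest of chromosome 3 and all tested genes, split into higher (red) and lower (blue). The bars range from 33.3% within 5 Mb to 37.0% for all genes.

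Besides Rbm8a and Rnf115, the calls within 0.25 Mb on HFD included Pdzk1. Pdzk1, a scaffold for membrane transporters and for the HDL receptor in liver, averaged 13.8 ± 6.72 TPM in livers labelled KO and 33.3 ± 2.20 TPM in WT livers on HFD (log2 change -1.33 ± 0.34, adjusted p = 0.0120, limma). On the other side of Lix1l, between 0.25 and 0.5 Mb away, the deubiquitinase gene Otud7b (-0.87, adjusted p = 0.0122), the splicing factor gene Sf3b4 (-0.96, adjusted p = 0.0246) and the unnamed transcript Gm20634 (-1.03, adjusted p = 0.0471) were lower. Gm47313, annotated as a miRNA gene, was called higher (2.72, adjusted p = 0.0425) with overlapping groups. It had 0.90, 23.70 and 21.23 TPM in livers labelled KO and 0, 2.63 and 0 TPM in WT livers on HFD. Over all 12 livers Gm47313 was at 0 in 6, so its level is uncertain. With no filter on low values, Sf3b4 (adjusted p = 0.0576), Gm20634 (0.112) and Gm47313 (0.110) were not called. Upstream of Lix1l, Polr3gl and Hfe2 were not called on HFD. Polr3gl, a paralogue of an RNA polymerase III subunit, averaged 5.99 ± 2.88 TPM in livers labelled KO and 8.24 ± 1.60 TPM in WT livers. Hfe2, which encodes the iron regulator hemojuvelin, averaged 34.1 ± 6.53 TPM in livers labelled KO and 34.7 ± 6.18 TPM in WT livers on HFD. On LFD, Hfe2 averaged 42.5 ± 3.46 TPM in livers labelled KO and 26.8 ± 1.28 TPM in WT livers, and the groups did not overlap. The LFD log2 change of Hfe2 was 0.64 ± 0.19 (unadjusted p = 0.00556, adjusted p = 0.190, limma), which was not called. Groups did not overlap on LFD for 17.6% of the tested genes.

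**Figure D5:**
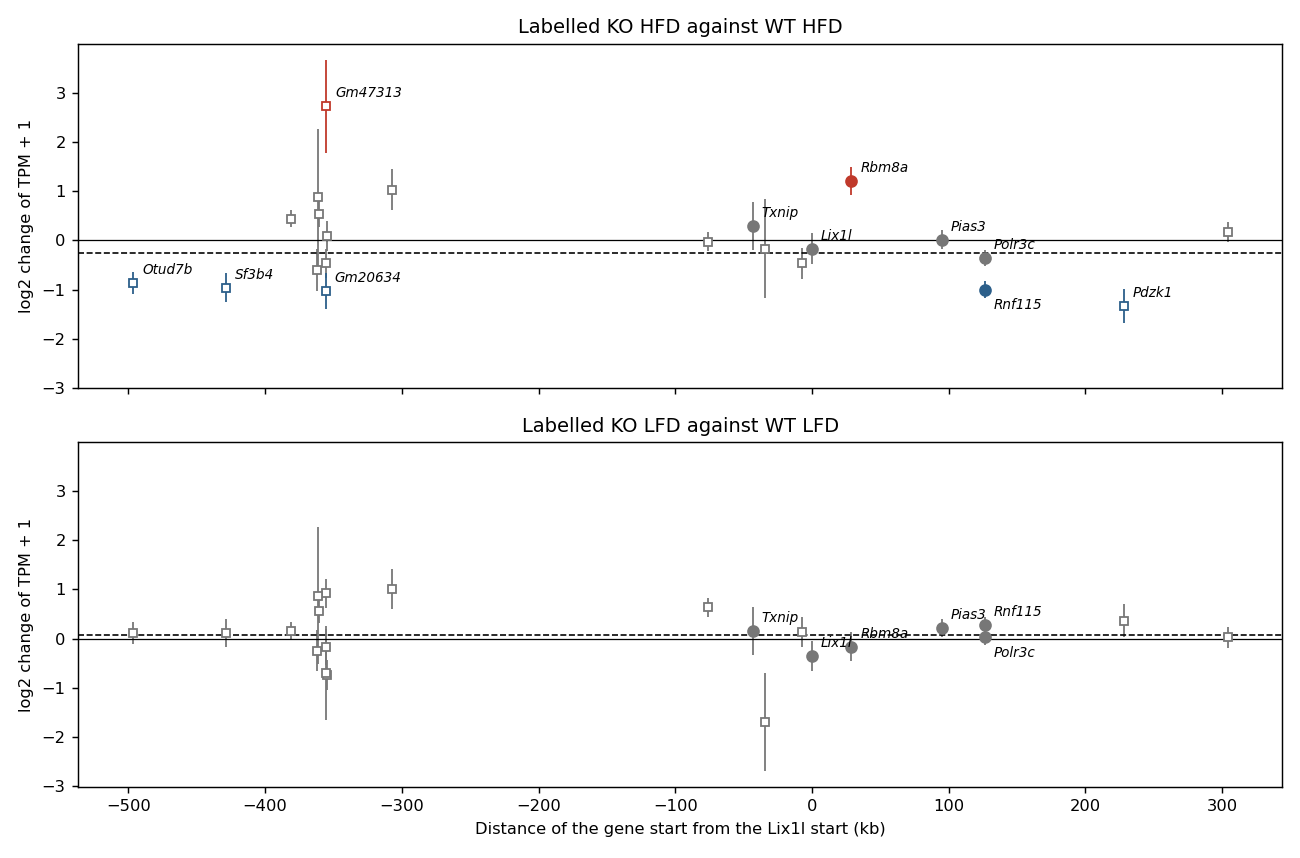
Log2 change of TPM + 1 (± SE) in livers labelled KO against WT on HFD (top) and on LFD (bottom) for the tested genes within 0.5 Mb that are reported here, by the distance of the gene start from the Lix1l start in kb, with the 6 tested genes of the set as filled circles, other genes as open squares, calls in red (higher) or blue (lower), and the median of all tested genes as a dashed line. Calls lie on both sides of Lix1l on HFD, in both directions, and no gene is called on LFD.

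Genes that work with the 9 proteins were read as lists, with no test of a list. On HFD 37.0% of all tested genes were called, 11.2% higher and 25.8% lower, with a median log2 change of -0.25, and the counts and medians of the lists stand beside these. Of 19 exon junction complex and nonsense-mediated decay genes, the partners of Rbm8a, 1 was higher and 2 were lower in livers labelled KO on HFD, with a median log2 change of 0.09. Acin1, a peripheral exon junction component, was higher (0.84, adjusted p = 0.00694, limma), and Rnps1 of the same periphery (-0.76, adjusted p = 0.0325) and the decay factor Upf2 (-0.64, adjusted p = 0.0255) were lower. The decay factor Smg8 had -0.58 (adjusted p = 0.0618). Of 17 RNA polymerase III subunits besides Polr3c, 1 was higher and 2 were lower (median -0.39). Polr1c (-1.07, adjusted p = 0.00940) and Polr1d (-0.82, adjusted p = 0.0202), shared with RNA polymerase I, were lower, and Polr3e had -0.56 (adjusted p = 0.0659).

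Of 15 STAT and SUMO partners of Pias3, none was higher and 5 were lower on HFD (median -0.55), beside 25.8% of all genes lower and a median of -0.25 over all genes. Among them were the modifier Sumo3 (14.3 ± 5.04 TPM in livers labelled KO, 32.8 ± 6.69 TPM in WT livers, adjusted p = 0.00504, limma), the related ligase Pias2 (-0.63, adjusted p = 0.0161), and Stat5b (-0.86, adjusted p = 0.0183) and Stat5a (-0.82, adjusted p = 0.0197), which carry growth hormone signals in liver. Of 9 relatives and partners of Rnf115, 2 were higher and 4 were lower (median -0.43). The close relative Rnf126 (0.78, adjusted p = 0.00971) and the chaperone Bag6 (0.91, adjusted p = 0.00449) were higher, while Rab7, a GTPase of late endosomes (-0.83, adjusted p = 0.00456), and the adaptor Ywhaz (-0.79, adjusted p = 0.0136) were lower.

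Of 14 tested partners of Txnip and glucose-sensing regulators, 2 were higher and 1 was lower on HFD (median -0.19), where 37.0% of all genes were called and the median over all genes was -0.25. Mlxipl, which binds the carbohydrate response element, was higher (1.57, adjusted p = 0.00429, limma), as was the Txnip relative Arrdc2 (0.83, adjusted p = 0.0348), and the thioredoxin reductase Txnrd1 was lower (-0.98, adjusted p = 0.0194). Mlxip had 1.01 (adjusted p = 0.0696). Of 17 tested Nudix hydrolases, the family of Nudt17, 1 was higher and 6 were lower (median -0.43), where among all genes too more were lower (25.8%) than higher (11.2%). Among the lower ones were Nudt19 (-1.28, adjusted p = 0.00217), Nudt16 (-1.32, adjusted p = 0.00290) and Nudt4 (-0.95, adjusted p = 0.00594), with Nudt22 higher (0.70, adjusted p = 0.0150). Of 4 collagen-binding integrin chains besides Itga10, 2 were tested. Itgb1, the beta chain that pairs with Itga10, was lower, at 15.0 ± 2.92 TPM in livers labelled KO and 34.6 ± 6.43 TPM in WT livers (adjusted p = 0.00236), and Itga1 had 0.44 (adjusted p = 0.0865). Lix1, the other member of the Lix1l family, was below the filter. On LFD no gene of any list was called by limma, and 7 of 93 (7.53%) had an unadjusted p below 0.05, beside 12.7% of all genes.

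For each of 3 genes, the tested genes most alike over the 12 livers by Pearson's r of log2(TPM + 1) were listed. Genes without a symbol, or with a predicted, clone-based, pseudogene or mitochondrial symbol, were left out of the lists. Lix1l was most like Cog5 (0.795), Nrp2 (0.782), Epc1 (0.744) and Dnajc19 (0.710), Rbm8a most like Utp11 (0.968), Kctd6 (0.957), Dusp11 (0.950) and Cd72 (0.947), and Txnip most like Rps27rt (0.766), Exosc1 (0.753), Zfp143 (0.751) and B4galt1 (0.750). Of these 12 genes, Dnajc19 alone is on chromosome 3. The 12 libraries share groups and scaling, and these values are a description.

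The livers also differed in other ways. Summed endothelial markers were 74.0 to 98.4 TPM in livers labelled KO and 21.9 to 39.1 TPM in WT livers on HFD, with 11 of 11 markers higher, and 80.0 to 90.8 TPM in livers labelled KO and 38.0 to 52.7 TPM in WT livers on LFD. Kupffer cell and macrophage markers were higher on HFD for 6 of 12 (70.8 to 440 TPM in livers labelled KO, 28.3 to 79.5 TPM in WT livers), and on LFD their sums were 157 to 500 TPM in livers labelled KO and 63.0 to 119 TPM in WT livers. Stellate cell and matrix markers were higher on HFD for 6 of 10 tested, and on LFD their sums were 82.0 to 134 TPM in livers labelled KO and 47.4 to 77.8 TPM in WT livers. Hepatocyte markers were lower on HFD for 6 of 9 tested, with sums of 37641 to 48300 TPM in livers labelled KO and 58912 to 70218 TPM in WT livers, and on LFD their sums were 38374 to 52273 TPM in livers labelled KO and 58805 to 77451 TPM in WT livers. On LFD the sums of these 4 lists did not overlap between genotypes, although no single marker in them was called there; on HFD the macrophage sums overlapped. Cholangiocyte markers were lower on HFD for 2 of 3 tested, and their LFD sums overlapped (36.1 to 40.8 TPM in livers labelled KO, 29.2 to 58.3 TPM in WT livers). None of 5 erythroid markers was called on HFD, and neither was the 1 tested T, NK and B cell marker. The cartilage marker Acan was listed at 0 in all livers. Among all genes tested on HFD, 11.2% were higher and 25.8% lower. Mitochondrially encoded genes took 10.9% to 22.6% of TPM in livers labelled KO and 8.58% to 11.1% in WT livers on HFD, the highest value being liver 1 labelled KO. The part of these differences in the values of Rbm8a, Rnf115, Polr3c and Itga10 was not tested. Without liver 1 labelled KO on HFD, Rbm8a changed by 1.37 (adjusted p = 0.0115, limma), Rnf115 by -0.86 (adjusted p = 0.00440) and Polr3c by -0.23 (adjusted p = 0.204) on HFD. Another scaling of the libraries moved the median of all genes on HFD by 0.19 (median-ratio) or 0.18 (quantile) on the log2 scale. Under median-ratio scaling Rbm8a changed by 1.45 and Rnf115 by -0.77, both called, and Polr3c by -0.13 (adjusted p = 0.399).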

How the data were processed

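The 12 mouse livers, 3 per group, were read from 1 RNA-seq table of TPM deposited by the authors. The labels' protocols describe snap-frozen liver, poly(A) selection and TruSeq libraries. HISAT2, StringTie and build mm10 are named, per the submitters' processing notes, with no versions. Because TPM is scaled by transcript length and by each library's total, it holds no counts or depth and allows no counting interval. Symbols were found for 55141 of 56107 genes, with positions from GENCODE M21.

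A gene was tested if 3 or more libraries reached 1 TPM (11980 genes). Its log2(TPM + 1), with a pseudocount of 1, was fitted in limma 3.58.1 under R 4.3.3 by group means with 8 residual degrees of freedom and trended moderation. Tests were 2-sided, p-values were adjusted over all tested genes by Benjamini-Hochberg, and a gene was called at an adjusted p below 0.05. The pseudocount understates the change of low genes. Comparisons were labelled KO against WT on each diet and averaged over the diets, HFD against LFD in each genotype, and the interaction (6 in all). Single genes also had an exact 2-sided permutation of TPM. The fits were tested on simulated data. Python 3.11.15 and matplotlib 3.10.9 drew the figures.

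The 9 genes, the partner and marker lists and the tests were chosen with earlier results of these data known. Named genes were the 9, other called genes within 0.5 Mb on HFD, up to 4 members of each partner list with the lowest p on HFD, and the 4 genes most like Lix1l, Rbm8a and Txnip. Some genes that this rule allows are not reported here, and called genes within 0.5 Mb in other comparisons are not all printed. Polr3gl and Hfe2 were chosen after their values were seen. Alternatives were other pseudocounts, filters and scalings, array weights, robust moderation, only the groups compared, a block by animal number, and each library left out in turn.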

Additional observations from a re-analysis of the deposited data

Results flagged for a closer look

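In all, 2 reported genes of the region had a change between livers labelled KO and WT that differed between the diets by the interaction test in limma. That test called 9.66% of all genes tested, and 3 of 23 (13.0%) within 0.5 Mb of the Lix1l start. For Rnf115 the log2 change on HFD minus that on LFD was -1.27 (adjusted p = 0.0208). For Pdzk1 it was -1.70 (adjusted p = 0.0468). Each of the 2 calls was lost when some single libraries were left out. Of 21 alternative fits, 3 lost the call of Rnf115 and 11 lost that of Pdzk1.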

How the results depend on the processing

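On HFD, leaving out any 1 library kept 2 of the 6 genes called, in fits that called 19.5% to 38.9% of all genes. Array weights called 64.5% of all genes on HFD, the replicate block 22.4% and the same livers without the block 9.95%. The count of the 6 genes was 4 with array weights, which ran from 0.192 (liver 1 labelled KO on HFD) to 6.04 (liver 5 labelled KO on HFD), 0 with the replicate block and 0 over the same livers without it, a fit added after seeing the data. The numbers pair only 2 livers of each HFD group, whose deviations correlated at -0.0938 and 0.0900, so they were not treated as pairs, and no paired analysis was possible for the other comparisons because their groups share fewer than 2 numbers. With the block, Rbm8a had 1.12 (adjusted p = 0.0694, limma) and Rnf115 -1.09 (adjusted p = 0.0614). On LFD the count was 0 in every fit. Averaged over diets, 1 gene was called with no filter, a fit in which Itga10, Ankrd35 and Nudt17 were counted too. The averaged count of the 6 genes was 1 with median-ratio scaling, with a stricter filter or without mitochondrially encoded genes. It was 2 with quantile normalization, 3 with array weights and 0 to 1 with a library left out. Of all genes, these fits called 8.24%, 29.0%, 24.8%, 25.4%, 28.8%, 39.8% and 12.0% to 22.8%, in the same order. For HFD against LFD the count of the 6 genes was 0 in livers labelled KO when only these groups were fitted, 1 to 2 with a library left out, and 1 in WT livers with array weights. Of all genes, these fits called 6.07%, 13.3% to 25.0% and 21.7%, in the same order. For the interaction the count of the 6 genes was 2 with array weights, quantile normalization, a stricter filter, without mitochondrially encoded genes or with median-ratio scaling. With a library left out it was 0 to 2. Of all genes, these fits called 40.8%, 13.8%, 17.7%, 11%, 13.8% and 0.234% to 17%, in the same order. Genes called within 0.25 Mb on HFD numbered 7 with array weights, 2 with the block, 1 over those livers without it, and 4 with any library left out. These counts stand beside the HFD shares of all genes given above for the same fits.

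Lix1l on HFD was -0.73 with array weights (adjusted p = 0.0138), 0.37 with the block and without it over those livers, and -0.44 to 0.23 with a library left out. On LFD it was -0.52 to -0.24 and averaged over diets -0.39 to -0.06 with a library left out, and -0.58 averaged with array weights (adjusted p = 0.0391). With a pseudocount of 0.1, Lix1l was -0.55 on HFD, -0.90 on LFD and -0.73 averaged, none of them called (adjusted p = 0.563, 0.686 and 0.317). Between diets in livers labelled KO it was -0.16 with array weights. Uncalled values that changed sign were Txnip on HFD (-0.10 with array weights) and on LFD (-0.19 to 0.75 with a library left out), Pias3 on HFD (-0.17 with the block and without it over those livers, -0.10 to 0.15 with a library left out), Polr3c on LFD (-0.07 with median-ratio scaling, -0.03 with quantile normalization) and Rbm8a on LFD (-0.42 to 0.02 with a library left out). The cause was not tested. TPM without counts limits what can be said of genes near 0, and 3 animals per group limit every test.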
